A study of Mus musculus with 24 samples.

Results

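A set of 10 transcription factors that set or mark the lineages of the lung was followed here through 24 mouse lungs. They are Nkx2-1, Foxa1, Foxa2, Sox2, Sox9, Irx1, Irx2, Gata6, Tbx4 and Tbx5, and they were chosen by gene symbol. All 10 are among the 23420 genes of each of the 4 deposited tables, and all 10 passed the filter on low values in each table. RNA from the whole left lobe had been sequenced at postnatal day 2 (P2) and day 5 (P5). The mutants were Vangl2 f/f; Sox9 Cre/+ mice or Ror2 f/f; Sox9 Cre/+ mice, with 3 lungs for each mutant and day, and each of these 4 sets of mutants had 3 control lungs of its own, whose genotype the labels give as WT. The titles of the controls read Control(Vangl1/2) in the Vangl2 sets, so they name Vangl1 as well, and Control(Ror2) in the Ror2 sets. VANGL2 is a membrane protein of the planar cell polarity pathway, which aligns cells and their cytoskeleton across a tissue, and ROR2 is a receptor for the ligand WNT5A in the same pathway. Cre made from the Sox9 locus turns the floxed genes into null alleles in the SOX9+ distal epithelium of the lung, and the same Cre is active in several other tissues. The mesenchyme of the lung keeps VANGL2. Mutants carried a Cre allele at Sox9 and controls, by their labels, did not. For every gene, Sox9 itself included, the Cre allele and the loss of the floxed gene thus cannot be told apart. In 2 groups, the Vangl2 mutants at P5 and the Ror2 mutants at P2, the genotype entry names the other floxed gene, and titles and table names were followed instead.

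The lung grows from a bud of foregut endoderm wrapped in mesoderm, and the members divide between these layers. NKX2-1 is the earliest marker of lung endoderm and later drives surfactant and secretory genes. FOXA1 and FOXA2 are forkhead pioneer factors that open endodermal enhancers, and GATA6 is a zinc finger factor needed for the maturation of distal epithelium and also made in smooth muscle and heart. SOX2 marks the conducting airways and SOX9 the distal tips, and SOX9 is also the master factor of cartilage. IRX1 and IRX2 are Iroquois homeodomain factors of the distal lung. TBX4 and TBX5 are T-box factors of the lung mesenchyme, TBX5 also of the heart.

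Levels are given as normalized counts, which are a gene's reads scaled by the size factor of the lung, and can be compared only within a table. In the lungs whose whole reads could be recovered, 13823693 to 21546673 reads fell on genes. The lowest, control replicate 1 of the Ror2 P5 table, stood apart (the next lowest held 16178031), with 48.7% of genes at 0 against 22.2% to 26.3% in the other lungs, and its zeros lay on chromosomes 5 to 9 and X. In that lung the genes of these chromosomes were set to missing, which among the members touches only Tbx5 on chromosome 5. Vangl2 was at 173 to 241 in the Vangl2 mutants and 249 to 302 in their controls at P2, and at 148 to 169.5 and 292 to 369 at P5. Ror2 was at 349 to 479 in the Ror2 mutants and 451 to 581 in their controls at P2 and at 362 to 521 and 368 to 597 at P5, with overlap on both days, so the level in whole lobes does not check that label. The genes named by the conflicting genotype entries were also mostly lower in those mutants, with overlap. Vangl2 was at 208 to 251 in the Ror2 P2 mutants and 245 to 291 in their controls. Ror2 was at 273 to 541 in the Vangl2 P5 mutants and 478 to 611 in their controls. These levels do not settle the entries. Xist, made from the inactive X, passed 10000 in 1 and 2 lungs of the Vangl2 P2 controls and mutants, 3 and 2 at P5, 1 and 1 of the Ror2 P2 groups, and 1 of the 2 usable controls and 0 of the 3 mutants of Ror2 P5, so sexes were not balanced.

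Markers of whole cell classes differed between genotypes in these lobes, and the members are markers of the same classes. The summed level of 10 general epithelial markers (Epcam, Cdh1 and keratins among them) was 15548 to 17753 in the controls and 23508 to 32751 in the mutants of the Vangl2 P2 table, a ratio of means of 1.64 with no overlap. The same sum stood at 1.36 times the controls in Vangl2 P5 without overlap, at 1.22 in Ror2 P2 with overlap, and, over the 7 markers usable there, at 1.35 in Ror2 P5 without overlap. Of the 10 epithelial markers, 3 rose in Vangl2 P2, 1 in Vangl2 P5, 0 in Ror2 P2 and 1 in Ror2 P5. The shares of all genes called in either direction, at limma's adjusted p under 0.05, were 3.59%, 0.563%, 0% and 0.128% in that order. The sum of the matrix fibroblast list, which holds collagen and growth factor receptor genes, was lower in mutants, at 0.708, 0.592 and 0.781 times the controls in Vangl2 P2, Vangl2 P5 and Ror2 P2 without overlap and at 0.771 in Ror2 P5 with overlap. That sum was set mainly by 2 of its 6 genes, Mfap4 (microfibril-associated protein 4) and Col1a1, whose control means in Vangl2 P2 were 61810 and 32819 normalized counts, and Col1a1 fell there, at a log2 fold change of -0.64 (SE 0.13, limma adjusted p = 0.0394). The list did not move as 1 group, since 3, 2, 3 and 2 of its 6 genes had log2 fold changes above 0 in Vangl2 P2, Vangl2 P5, Ror2 P2 and Ror2 P5, with medians of -0.068, -0.73, 0.091 and -0.34. No defining marker of either list was at 0 in all lungs. The part of these shifts in the results on the factors was not tested, and in whole lobes fewer cells of a type and less RNA per cell cannot be told apart.

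Among the controls the factors spanned a wide range, and Nkx2-1 and the mesenchymal factor Tbx4 headed it. Per kb of exon, Nkx2-1 stood at 1875 ± 168 normalized counts per kb in the Vangl2 P2 controls and Tbx4 at 1412 ± 124 (SD, n = 3). At P5 the order of these 2 was the other way around, with Tbx4 at 1814 ± 58.7 and Nkx2-1 at 1183 ± 67.4 normalized counts per kb in the controls of the Vangl2 table, and at 2069 ± 152 and 1092 ± 38.2 in those of the Ror2 table. Both P5 tables kept the 2 genes' lungs apart, as did the Vangl2 P2 table, whereas in the Ror2 P2 controls they overlapped. Below them came Irx1 and Tbx5, whose control lungs overlapped in each of the 4 tables, at 678 ± 244 and 622 ± 19.5 normalized counts per kb in Vangl2 P2. Irx2, Foxa2, Foxa1 and Gata6 followed between 158 and 495 normalized counts per kb over the 4 tables, and Foxa1 could not be told from Gata6 by its lungs in Vangl2 P2, Vangl2 P5 and Ror2 P5, where the 2 were neighbours. The Sox genes came last. Sox2 stood at 99.6 ± 22.0 and Sox9 at 42.0 ± 6.09 normalized counts per kb in the Vangl2 P2 controls, without overlap, and at 27.9 ± 5.58 and 27.4 ± 8.97 in the Ror2 P5 controls, with overlap. Days were sequenced in separate tables, so no test between days was made on these levels.

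**Figure D1:**
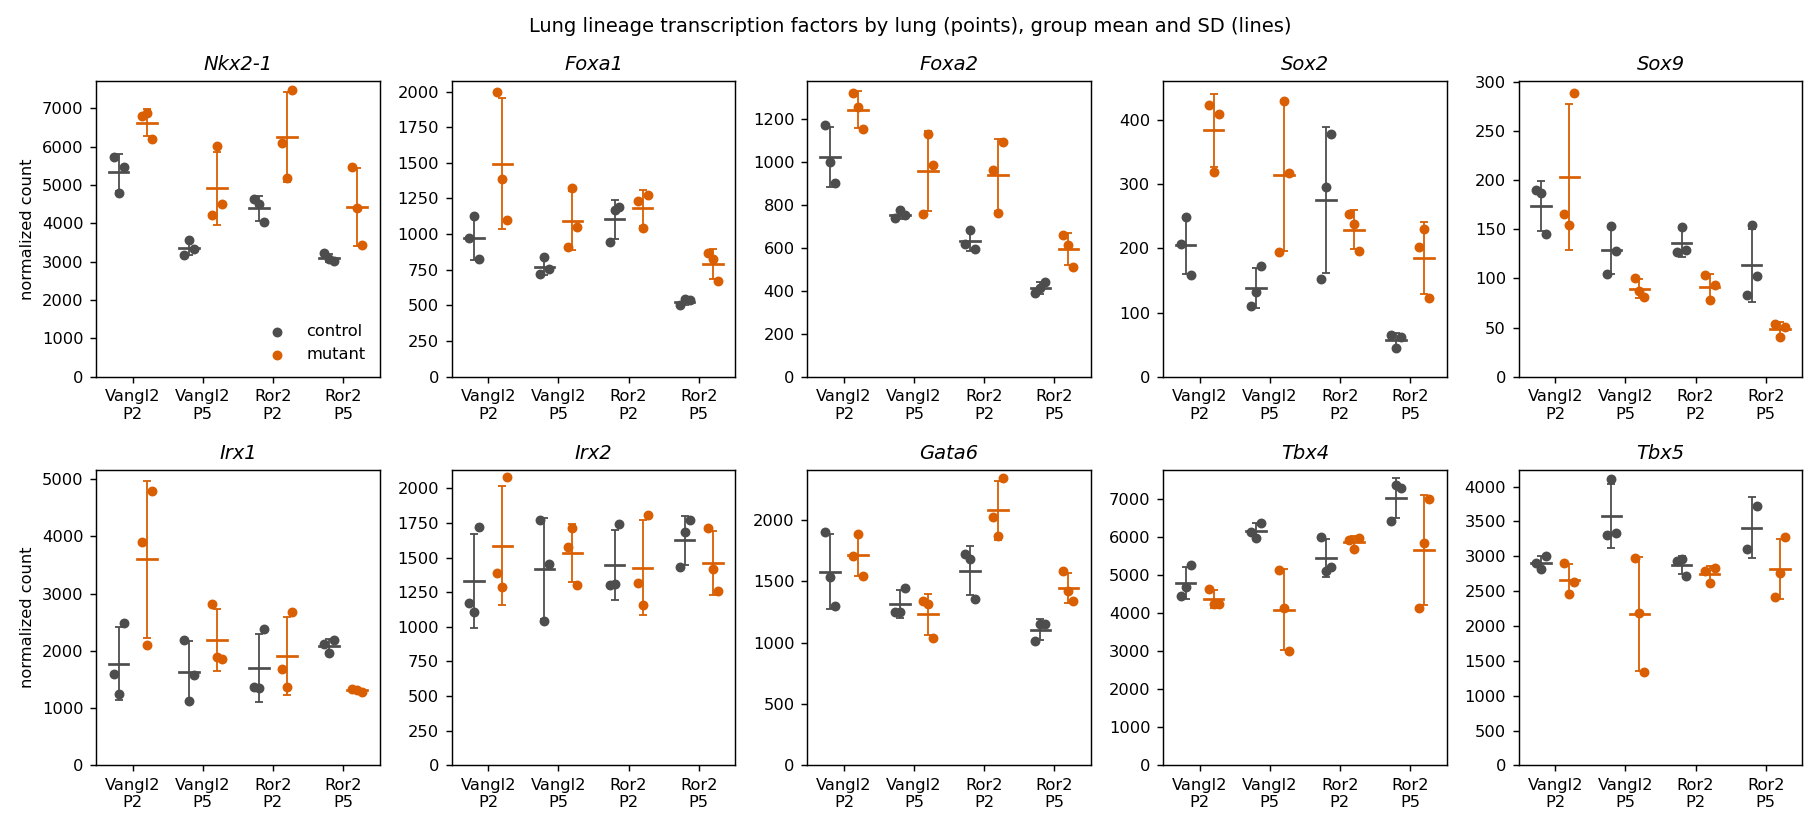
Normalized count (y axis, linear from 0) of each of the 10 factors in the lungs of the 4 tables (x axis); points are lungs, bars are group means with their SD, grey for controls and orange for mutants. Nkx2-1 mutants lie above their controls in each table, Sox9 mutants lie below theirs in 3 tables, and Irx1 mutants lie below theirs in Ror2 P5.

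Mutant lungs were then compared with the controls of their own table, to ask whether loss of Vangl2 or Ror2 from the distal epithelium went along with a change in lineage factors. Most factors of the endoderm lay higher in mutants, the mesenchymal factors did not, and only 1 of the 40 changes passed the test as first fitted. That one was Irx1 in Ror2 P5, which fell. By limma with Benjamini-Hochberg adjustment over all genes, 0 of the 10 factors passed in Vangl2 P2, where 3.59% of 17448 genes did, 0 in Vangl2 P5 (0.563% of 17410 genes), 0 in Ror2 P2 (0% of 17541 genes) and 1 in Ror2 P5 (0.128% of 17179 genes). At an unadjusted p under 0.05 the counts were 5, 5, 4 and 7 of 10, beside 22.5%, 18.8%, 19.3% and 18.4% of all genes. Mutant and control lungs did not overlap for 2, 6, 4 and 7 of the 10 factors, beside 29.6%, 25.7%, 25.7% and 29.9% of all genes. The median log2 fold change of the 10 was 0.27, 0.23, 0.11 and 0.11, and that of all genes ranged from -0.0059 to 0.0041 over the tables. In both P2 tables, where count tests could be run, edgeR on the recovered reads called 0 of the 10, beside 3.67% of all genes in Vangl2 P2 and 0% in Ror2 P2. DESeq2 called 2 in each, beside 13% and 6.12% of the genes it gave an adjusted p, Sox2 (adjusted p = 0.00153) and Irx1 (adjusted p = 0.0213) in Vangl2 P2 and Nkx2-1 (adjusted p = 0.0313) and Foxa2 (adjusted p = 0.0253) in Ror2 P2.

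Same-numbered lungs deviated together in the Vangl2 P5 table only, where each number's correlation was over 0.1. With the replicate number as a block, Nkx2-1 (adjusted p = 0.0366), Foxa1 (adjusted p = 0.0414) and Sox2 (adjusted p = 0.0307) passed limma's test in Vangl2 P5 and all 3 rose, while 1558 of all genes passed against 98 without the block. Without the block, none of the 3 passed in that table. Call counts also moved with single lungs, which are named beside the factors they touch.

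**Figure D2:**
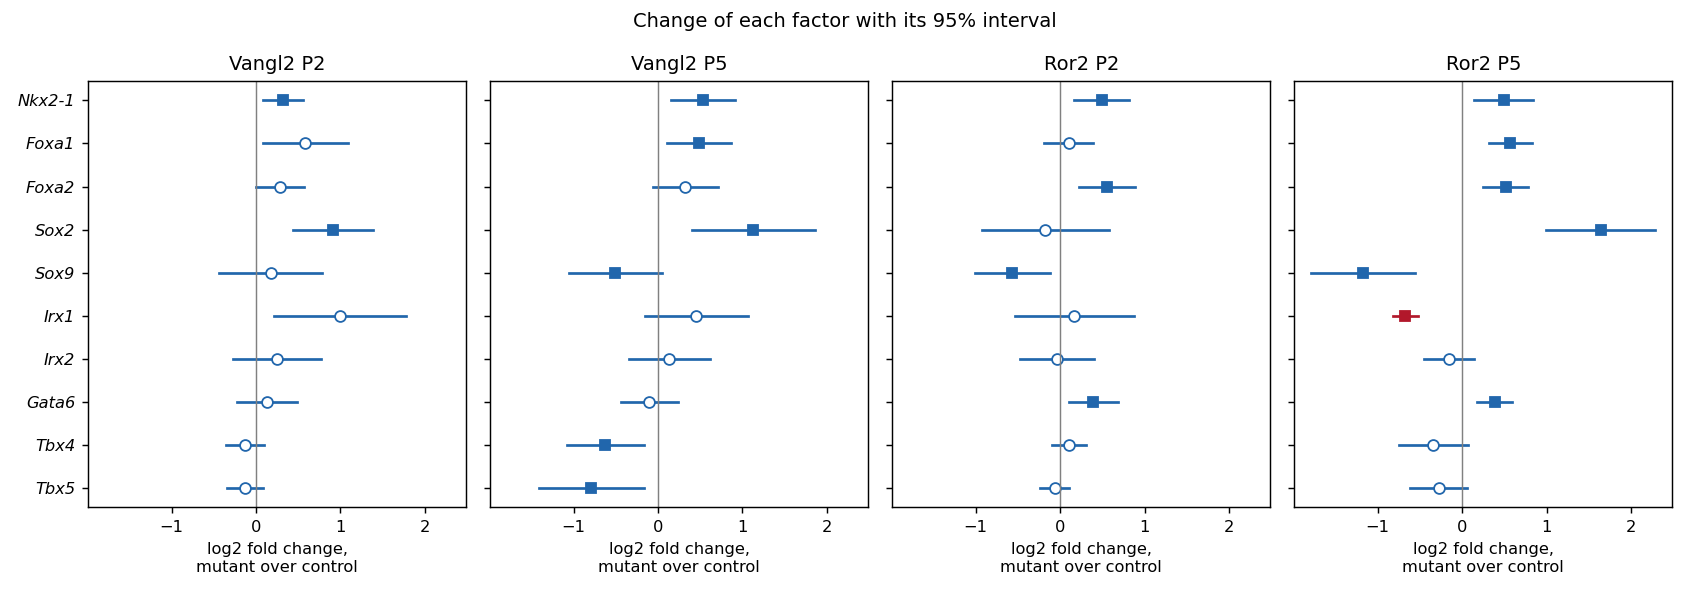
Log2 fold change, mutant over control, on log2(normalized count + 1) (x axis), for each factor (y axis) in the 4 tables, with limma's 95% interval as a line; filled squares mark factors whose mutant and control lungs do not overlap, open circles those that overlap, and red an adjusted p under 0.05. Nkx2-1, Foxa1 and Foxa2 lie to the right of 0 in each table, Sox2 in 3 of 4, and Irx1 in Ror2 P5 is the red point at -0.67.

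Nkx2-1 (Entrez gene 21869, chr12:56531958-56536908 of GRCm38, minus strand) was higher in every mutant lung than in every control of its table. At P2 of Vangl2 it measured 5720.2, 4798 and 5469 in the controls and 6789.7, 6875 and 6215 in the mutants, and the log2 fold change was 0.32 (SE 0.10, limma adjusted p = 0.128). At P5 of Vangl2 the levels were 3185, 3565 and 3337 in the controls and 4227, 6011 and 4515 in the mutants, for 0.53 (SE 0.16, limma adjusted p = 0.151). The groups stood apart on both days, and mutant replicate 2 was the highest mutant of each table. In the Ror2 tables the P2 levels were 4645, 4511 and 4026 in the controls and 6087, 5176 and 7489.6 in the mutants, for 0.49 (SE 0.14, limma adjusted p = 0.203). The Ror2 P5 levels were 3228, 3062 and 3025 in the controls and 5474, 4404 and 3437 in the mutants, for 0.49 (SE 0.15, limma adjusted p = 0.179). Mutant replicate 3 of Ror2 P5 came close to its controls, and without it Nkx2-1 passed the test (adjusted p = 0.0267). The 4 fold changes lay between 0.32 and 0.53, the narrowest span of the 10 factors. An antisense transcript, Gm26973, overlaps Nkx2-1, and since strand use in counting is not given in the sources used here, reads of the 2 cannot be told apart.

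Foxa1 (Entrez gene 15375, chr12:57540628-57546916, minus strand) lies 1004 kb from Nkx2-1 on the same chromosome, with 5 protein-coding genes between them. Its levels in Vangl2 P2 were 971, 1128 and 823 in the controls and 1999, 1385 and 1102 in the mutants, with a log2 fold change of 0.59 (SE 0.22, limma adjusted p = 0.170). Mutant replicate 3 lay among the controls there, and without it Foxa1 passed the test (adjusted p = 0.0387). In Vangl2 P5 it measured 719, 842 and 758 in the controls and 911, 1321 and 1051 in the mutants, for 0.49 (SE 0.16, limma adjusted p = 0.179). The Ror2 P2 groups overlapped, at 947, 1172 and 1193 in the controls and 1234, 1041 and 1277 in the mutants, for 0.10 (SE 0.12, limma adjusted p = 0.657). In Ror2 P5 the levels were 502, 545 and 535 in the controls and 869, 827 and 668 in the mutants, for 0.57 (SE 0.11, limma adjusted p = 0.105). The controls of that table were tightly grouped and lay below all 3 mutants.

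The 250 bases before the RefSeq start sites of Nkx2-1, Foxa1 and Sox2 are shown because these 3 factors rose in Vangl2 P5 with the block. The sequences are RefSeq's for GRCm38.p6, read 5′ to 3′ on the gene's strand, and bases that GENCODE places in an exon were left off, which shortens that of Foxa1 to 240 bases. They cover chr12:56536909-56537158 (minus strand), chr12:57546122-57546361 (minus strand) and chr3:34649745-34649994 (plus strand). Capitals mark matches, on either strand, to short core motifs of the forkhead, NKX2, SOX, GATA and T-box families. No Iroquois motif was searched.
Nkx2-1: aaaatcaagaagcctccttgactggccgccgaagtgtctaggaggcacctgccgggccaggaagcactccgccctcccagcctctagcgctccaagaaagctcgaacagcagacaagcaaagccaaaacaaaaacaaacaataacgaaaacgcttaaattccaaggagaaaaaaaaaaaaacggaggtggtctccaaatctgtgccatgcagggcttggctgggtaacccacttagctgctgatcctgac
Foxa1: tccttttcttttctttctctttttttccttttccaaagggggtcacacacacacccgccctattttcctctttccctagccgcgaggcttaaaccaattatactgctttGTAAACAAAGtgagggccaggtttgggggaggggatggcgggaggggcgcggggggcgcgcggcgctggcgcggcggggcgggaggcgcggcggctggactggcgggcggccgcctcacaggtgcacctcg
Sox2: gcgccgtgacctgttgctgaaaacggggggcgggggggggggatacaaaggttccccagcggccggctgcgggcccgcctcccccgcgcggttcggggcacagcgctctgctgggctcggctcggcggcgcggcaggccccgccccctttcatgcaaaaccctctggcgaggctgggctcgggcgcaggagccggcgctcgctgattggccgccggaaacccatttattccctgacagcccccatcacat

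Foxa1 holds a forkhead core (TGTTTAC) that overlaps a SOX core (CTTTGTT), both as the reverse complement, between 141 and 132 bases before its start. Of 32851 upstream windows of 250 bases outside chromosome 18, 3.17% hold the forkhead core and 5.03% the SOX core. The windows of Nkx2-1 and Sox2 hold neither of these, nor the NKX2 core (CAAGTG, in 11.6% of windows), the GATA core (AGATAA, in 9.99%) or the T-box core (GGTGTGA, in 3.33%). Among the other members with an entry, 1 of the 3 windows of Foxa2 holds a GATA core, and those of Irx2 and Tbx4 hold no match. The Nkx2-1 window is 50.8% G or C, the Foxa1 window 62.5% and the Sox2 window 72.0%, beside a median of 52.4% over the windows. A match is a run of letters and was not tested as a binding site.

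Foxa2 (Entrez gene 15376, chr2:148042877-148046969, minus strand) stood above its controls in both Ror2 tables and partly among them in both Vangl2 tables. Its levels were 617, 685 and 595 in the controls and 961, 760.4 and 1095 in the mutants in Ror2 P2, with a log2 fold change of 0.56 (SE 0.14, limma adjusted p = 0.203), and the groups did not overlap. In Ror2 P5 they were 388, 413 and 443 in the controls and 659.7, 614 and 511 in the mutants, for 0.51 (SE 0.11, limma adjusted p = 0.121), again without overlap. The Vangl2 tables gave smaller values. In Vangl2 P2 the levels were 1172, 998 and 900.3 in the controls and 1323, 1256 and 1152 in the mutants, for 0.29 (SE 0.12, limma adjusted p = 0.218), and only mutant replicate 3 lay within the controls' range. In Vangl2 P5 they were 737, 778 and 751 in the controls and 759, 1130.4 and 987 in the mutants, for 0.32 (SE 0.17, limma adjusted p = 0.338), with mutant replicate 1 among the controls. Without mutant replicate 2, Foxa2 (adjusted p = 0.0375) and Nkx2-1 (adjusted p = 0.0449) passed in Ror2 P2, and 859 of all genes did against 0 with it.

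Gata6 (Entrez gene 14465, chr18:11052064-11085635, plus strand) stood above its controls in both Ror2 tables and among them in both Vangl2 tables. In Ror2 P2 it measured 1717, 1683 and 1356 in the controls and 2025, 1868 and 2340.4 in the mutants, with a log2 fold change of 0.39 (SE 0.12, limma adjusted p = 0.208). In Ror2 P5 the levels were 1009, 1155 and 1154 in the controls and 1579, 1418 and 1337 in the mutants, for 0.38 (SE 0.090, limma adjusted p = 0.126). No Ror2 mutant lay within the range of its controls. In Vangl2 P2 the levels were 1902, 1537 and 1295 in the controls and 1704, 1886 and 1544 in the mutants, for 0.13 (SE 0.15, limma adjusted p = 0.650). In Vangl2 P5 they were 1252, 1249.6 and 1447 in the controls and 1334, 1314 and 1037 in the mutants, for -0.11 (SE 0.15, limma adjusted p = 0.751). Both Vangl2 groups overlapped. The Ror2 P5 fold change exceeded that of Vangl2 P5 by 0.49 (SE 0.17, unadjusted p = 0.0143, limma adjusted p = 0.925), which does not pass over all genes. An opposite-strand transcript, 1010001N08Rik, overlaps Gata6 as well.

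Sox2 (Entrez gene 20674, chr3:34650405-34652461, plus strand), the airway factor, gave the highest fold change of the set in the 2 P5 tables. In Vangl2 P2 it measured 206, 249 and 159 in the controls and 424, 319 and 409 in the mutants, with a log2 fold change of 0.92 (SE 0.20, limma adjusted p = 0.0541). In Vangl2 P5 the levels were 110.4, 132 and 172 in the controls and 194, 429.8 and 318 in the mutants, for 1.13 (SE 0.32, limma adjusted p = 0.128). In Ror2 P5 they were 65.3, 44.2 and 62.5 in the controls and 202, 231 and 122 in the mutants, for 1.64 (SE 0.28, limma adjusted p = 0.0830). All mutants lay above all controls in these 3 tables, and the Ror2 P5 mutants averaged 3.23 times their controls. In Ror2 P2 the groups overlapped, at 153, 295 and 378 in the controls and 254, 238 and 195 in the mutants, for -0.18 (SE 0.32, limma adjusted p = 0.780). The controls of that table ranged more widely than its mutants. Without mutant replicate 3, whose level was the lowest of the 3 mutants, Sox2 passed in Ror2 P5 (adjusted p = 0.0152). Sox2 lies inside the same-strand transcript Sox2ot, which the tables also list, so reads may be divided between the 2.

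Markers of 2 airway cell classes, multiciliated and secretory, were set beside Sox2. The summed level of 6 multiciliated cell markers, Foxj1 among them, stood at 1.36 times the controls in Vangl2 P2 with overlap, 1.86 in Vangl2 P5 without overlap and 1.01 in Ror2 P2 with overlap. In Ror2 P5 the 4 usable markers summed to 626 to 730.3 in the controls and 1230.0 to 2629.7 in the mutants, a ratio of 2.77 without overlap. Sox2 groups overlapped in Ror2 P2 only, whereas the multiciliated sums overlapped in both P2 tables. The 4 club and secretory cell markers (2 in Ror2 P5) stood at 1.63, 2.38, 1.43 and 2.44 times the controls, and overlapped in Ror2 P2 only. None of the 10 airway markers of these 2 lists passed the test in any table. Their part in the Sox2 values was not tested.

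Sox9 (Entrez gene 20682, chr11:112782224-112787760, plus strand), the distal tip factor and the locus that carries Cre in mutants, was the only factor of the epithelium that lay below the controls in 3 tables. In Vangl2 P5 it measured 105, 153 and 128 in the controls and 99.9, 87.3 and 81.3 in the mutants, with a log2 fold change of -0.51 (SE 0.24, limma adjusted p = 0.304). In Ror2 P2 the levels were 127, 153 and 129 in the controls and 104, 77.7 and 93.5 in the mutants, for -0.57 (SE 0.19, limma adjusted p = 0.211). In Ror2 P5 they were 83.0, 155 and 102 in the controls and 53.9, 40.7 and 50.6 in the mutants, for -1.17 (SE 0.26, limma adjusted p = 0.122). No mutant of these 3 tables reached its lowest control, and the Ror2 P5 mutants averaged 0.427 times their controls. Vangl2 P2 was different, at 189.6, 187 and 145 in the controls and 165, 154 and 288 in the mutants, for 0.17 (SE 0.26, limma adjusted p = 0.733), and mutant replicate 3 alone lay above the controls. Without that lung the fold change was -0.11. Cartilage also makes Sox9. The 12 cartilage markers (10 summed in Ror2 P5) stood at 1.07, 1.20, 0.770 and 1.36 times the controls, with mutants above controls in Ror2 P5 and overlap elsewhere. In Ror2 P5 the sum was set mainly by Col2a1, at means of 89.0 normalized counts in controls and 197 in mutants, and of the 10 cartilage markers tested there 4 had log2 fold changes above 0, with a median of -0.042. Snorc was at 0 in all Ror2 P5 lungs used.

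Irx1 (Entrez gene 16371, chr13:71957921-71963723, minus strand) was the 1 factor that passed the test. In Ror2 P5 it measured 2114, 1972 and 2188 in the controls and 1331, 1324 and 1278 in the mutants, and it fell by 0.67 on the log2 scale (SE 0.066, limma adjusted p = 0.0302). Lungs within each group agreed closely, and all 3 mutants lay below all 3 controls. The log2 fold change kept between -0.71 and -0.64 over 13 alternatives, while its adjusted p ran from 0.0131 to 0.284. The call was lost without control replicate 1 (adjusted p = 0.0885), control replicate 2 (0.159), control replicate 3 (0.127) or mutant replicate 2 (0.284), and with the replicate block (0.0661). It was also lost when control replicate 1 was kept for all genes, which left 0 factors called. Of the 13 alternatives, 7 kept the call. Control replicate 1, the lung with missing chromosomes, had a usable Irx1 value of 2114, between the other 2 controls.

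The other tables placed Irx1 the other way, with wide spreads. In Vangl2 P2 the levels were 1598, 1245 and 2484 in the controls and 3911, 2104 and 4789.6 in the mutants, for a log2 fold change of 1.00 (SE 0.34, limma adjusted p = 0.142). In Vangl2 P5 they were 2189.6, 1118 and 1577 in the controls and 2821, 1891 and 1866 in the mutants, for 0.46 (SE 0.26, limma adjusted p = 0.396), and in Ror2 P2 1361, 1344 and 2387 in the controls and 1689, 1370.1 and 2671 in the mutants, for 0.17 (SE 0.30, limma adjusted p = 0.776). Groups overlapped in all 3. Within the Vangl2 P2 and Ror2 P2 tables, replicate 3 was the highest of both its controls and its mutants. With the replicate block Irx1 passed in Vangl2 P2 (adjusted p = 0.0179), although the same-numbered lungs of that table did not deviate together over all genes.

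Irx2 (Entrez gene 16372, chr13:72628820-72634198, plus strand) lies 665 kb from Irx1 with no protein-coding gene between them. It measured 1170.2, 1104 and 1720.2 in the controls and 1391, 1287 and 2079 in the mutants in Vangl2 P2 and 1768, 1039 and 1452 in the controls and 1573, 1714 and 1303 in the mutants in Vangl2 P5. The Ror2 tables gave 1298, 1308 and 1739 in the controls and 1314, 1156 and 1809.9 in the mutants at P2 and 1428, 1682 and 1767 in the controls and 1713, 1414 and 1258 in the mutants at P5. Groups overlapped in each table, and the log2 fold changes were 0.25 (SE 0.22, limma adjusted p = 0.548), 0.13 (SE 0.21, adjusted p = 0.784), -0.035 (SE 0.19, adjusted p = 0.933) and -0.16 (SE 0.13, adjusted p = 0.522) in that order. In Ror2 P5, where Irx1 fell, the interval of the Irx2 change ran from -0.46 to 0.14.

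Tbx4 (Entrez gene 21387, chr11:85886422-85916097, plus strand) and Tbx5 (Entrez gene 21388, chr5:119832668-119885219, plus strand), the mesenchymal members, stood apart from their controls in Vangl2 P5 only. There Tbx4 measured 6150.0, 5979.8 and 6378 in the controls and 5138, 4137 and 3013 in the mutants, with a log2 fold change of -0.62 (SE 0.20, limma adjusted p = 0.161). Tbx5 measured 3301, 4104 and 3334 in the controls and 2976, 2184 and 1345 in the mutants, for -0.79 (SE 0.27, limma adjusted p = 0.182). All mutants lay below all controls for both genes, and mutant replicate 3 was the lowest for both. With the replicate block neither passed, Tbx4 at an adjusted p of 0.0593 and Tbx5 at 0.0572. In Ror2 P5, Tbx4 levels were 6442, 7373 and 7296 in the controls and 4136, 5852 and 7016 in the mutants, for -0.34 (SE 0.18, limma adjusted p = 0.338), and mutant replicate 1 was the lowest. Tbx5, with 2 usable controls there, was at 3099 and 3719 in the controls and 2423, 2757 and 3271 in the mutants, for -0.28 (SE 0.14, limma adjusted p = 0.340). The P2 tables showed smaller differences, with overlap in all 4 cases. Tbx4 lay between 4239 and 6024 over the 12 P2 lungs and Tbx5 between 2463 and 3001, and the log2 fold changes were -0.13 (SE 0.10, limma adjusted p = 0.475) and -0.13 (SE 0.094, adjusted p = 0.453) in Vangl2 P2 and 0.11 (SE 0.086, adjusted p = 0.486) and -0.064 (SE 0.072, adjusted p = 0.637) in Ror2 P2. Heart muscle, a further source of Tbx5, was present in every table, where the 8 cardiac markers (7 in Ror2 P5) summed to 818 to 16156 over the lungs and overlapped between groups.

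To set the members beside a cell class that makes them, each level was divided by the summed markers of that class in the same lung, the epithelial list for the 8 endodermal factors and the matrix fibroblast list for Tbx4 and Tbx5. This cancels the size factor, and it was chosen after the values were seen. Gata6 is also made in smooth muscle and heart and Sox9 in cartilage, so for both the epithelial list covers only part of the sources. Per 1000 counts of epithelial markers, Nkx2-1 was at 316 ± 41.5 in the controls and 243 ± 44.2 in the mutants (SD, n = 3 each) in Vangl2 P2, a mean log2 difference of -0.38, and at 0.074, 0.23 and 0.058 in Vangl2 P5, Ror2 P2 and Ror2 P5, with overlap in all 4. Foxa1 overlapped in all 4 tables on this scale too, with differences from -0.16 to 0.14. The Nkx2-1 groups, apart in each table on normalized counts, thus overlapped on this scale. The epithelial sum itself holds markers that rose, 3 of 10 in Vangl2 P2 and 1 in each P5 table. How well it follows the number of epithelial cells was not tested. Foxa2 and Gata6 lay below their controls in Vangl2 P2 without overlap (-0.41 and -0.57), as did Gata6 in Vangl2 P5 (-0.56). The summed smooth muscle markers stood at 0.716 times the controls in Vangl2 P2 without overlap. They stood at 0.710 in Vangl2 P5, 0.783 in Ror2 P2 and 0.884 in Ror2 P5 with overlap, and their part in the Gata6 values was not tested. In the Ror2 tables both genes overlapped on this scale, Foxa2 at 0.29 and 0.084 and Gata6 at 0.13 and -0.047 at P2 and P5, as did Foxa2 in Vangl2 P5 (-0.13).

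Both Sox genes and Irx1 kept their separation in Ror2 P5 relative to the epithelial markers. There Sox2 was at 9.42 ± 1.57 in the controls and 22.4 ± 5.67 in the mutants (SD, n = 3 each) per 1000, a mean log2 difference of 1.23. Sox9 was at 18.9 ± 7.15 in the controls and 5.94 ± 0.994 in the mutants (SD, n = 3 each), for -1.62, and it also lay below its controls without overlap in Vangl2 P5 (-0.97) and Ror2 P2 (-0.84). Irx1 was at 346 ± 24 in the controls and 161 ± 7.54 in the mutants (SD, n = 3 each), for -1.10, and Irx2 at 270.0 ± 44.5 in the controls and 178 ± 19.4 in the mutants (SD, n = 3 each), for -0.59, both without overlap. Irx2 lay below its controls without overlap in Ror2 P2 too (-0.30). Sox2 in the Vangl2 tables overlapped on this scale, with differences of 0.22 at P2 and 0.68 at P5. Against the matrix fibroblast markers, Tbx4 and Tbx5 of Vangl2 P5 overlapped between groups, at 0.15 and -0.012, whereas in Vangl2 P2 both lay above their controls, at 0.37 and 0.37, as did Tbx4 in Ror2 P2, at 0.48. In both of these P2 tables Mfap4 and Col1a1, the most abundant of the matrix fibroblast markers, lay below the controls without overlap while 3 of the 6 markers had log2 fold changes above 0, so these ratios follow the abundant markers more than the list. No test was run on these ratios.

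Genes that NKX2-1 or the FOXA factors are known to drive in lung epithelium rose in part in Vangl2 P2. Of 14 such genes, 4 rose and 0 fell in Vangl2 P2, namely the surfactant proteins Sftpa1, at 1.89 (SE 0.34, adjusted p = 0.0329), and Sftpd, at 1.55 (SE 0.17, adjusted p = 0.0248), the mucin Muc1, at 0.82 (SE 0.17, adjusted p = 0.0410), and the phosphate transporter Slc34a2, at 0.63 (SE 0.12, adjusted p = 0.0394) by limma. Of all genes, 3.59% passed in Vangl2 P2. Without control replicate 2 only 1 gene passed there, and likewise 1 without control replicate 3. None of the 14 passed in the other 3 tables. Their median log2 fold change was 0.54, 0.49, 0.35 and 0.090 in Vangl2 P2, Vangl2 P5, Ror2 P2 and Ror2 P5, and 12, 14, 12 and 10 of the 14 lay above 0. The most abundant of them, the surfactant gene Sftpc, had a log2 fold change of -0.055 (SE 0.28, adjusted p = 0.927) in Vangl2 P2 and -0.24 (SE 0.18, adjusted p = 0.480) in Ror2 P5 by limma. Its log2 fold change in Vangl2 P5 was above 0, as for all 14 genes. Scgb1a1, the secretory protein of club cells, was at 1.19 (SE 0.24, adjusted p = 0.107) in Ror2 P5. The log2 fold changes of Nkx2-1 itself were 0.32, 0.53, 0.49 and 0.49 in Vangl2 P2, Vangl2 P5, Ror2 P2 and Ror2 P5. Thyroid, another site of Nkx2-1, was nearly absent, its 4 markers summing to 12.9 to 106 normalized counts over the lungs.

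Of 27 other lineage factors of the epithelium, 4 rose in Vangl2 P2, the ETS factors Ehf at 1.31 (SE 0.27, adjusted p = 0.0448) and Elf5 at 0.49 (SE 0.10, adjusted p = 0.0418), the Krüppel-like factor Klf5 at 1.04 (SE 0.21, adjusted p = 0.0408) and Hopx, a homeodomain protein of alveolar type I cells at 0.75 (SE 0.15, adjusted p = 0.0436). Etv4, an ETS factor of the distal tip that responds to FGF signalling, fell by 1.65 there (SE 0.33, limma adjusted p = 0.0408). In Vangl2 P5 Elf3 at 1.32 (SE 0.16, adjusted p = 0.0201) and Ehf at 1.13 (SE 0.14, adjusted p = 0.0202) rose, and none of the 27 passed in Ror2 P2 or Ror2 P5. Of all genes, 3.59% passed in Vangl2 P2 and 0.563% in Vangl2 P5. In the Ror2 P5 table the most abundant of the list, Nfib and Wwtr1, were at -0.18 (SE 0.065, adjusted p = 0.211) and -0.11 (SE 0.074, adjusted p = 0.468). Foxj1, the master factor of motile cilia, named after its values were seen, was at 1.36 (SE 0.28, adjusted p = 0.0823) in Vangl2 P5 and 1.51 (SE 0.24, adjusted p = 0.0803) in Ror2 P5 by limma. Etv4 also had negative log2 fold changes in both Ror2 tables and Vangl2 P5, of -1.39, -0.63 and -0.96. The medians of the list were 0.34, 0.49, 0.14 and 0.15.

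Of 19 other lineage factors of the mesenchyme, 2 fell in Vangl2 P2, the forkhead factor Foxf2 at a log2 fold change of -0.75 (SE 0.13, adjusted p = 0.0326) and the basic helix-loop-helix factor Twist1 at -1.78 (SE 0.32, adjusted p = 0.0330). Of all genes, 3.59% passed in that table. None of the 19 passed in the other tables by limma. In Vangl2 P5 11 of the 19 had all mutants below all controls, beside 12.5% of all genes, as Tbx4 and Tbx5 did. The list's medians were -0.35, -0.53, -0.11 and -0.20 in Vangl2 P2, Vangl2 P5, Ror2 P2 and Ror2 P5, lowest in the table where the T-box factors were lowest. The most abundant of them, Foxf1 and Tcf21, were at -0.50 (SE 0.23, adjusted p = 0.286) and 0.28 (SE 0.19, adjusted p = 0.476) in Vangl2 P5. Of 22 paralogs of the members, 14 to 16 were expressed enough to be tested and only Foxa3, the third FOXA gene at a mean of 1.94 normalized counts in controls and 17.9 in mutants, rose, in Vangl2 P2 at 2.64 (SE 0.49, adjusted p = 0.0342). The most abundant paralogs, the mesenchymal T-box genes Tbx2 and Tbx3, had log2 fold changes of -0.55 (SE 0.18, adjusted p = 0.174) and -0.59 (SE 0.15, adjusted p = 0.117) in Vangl2 P5, and of -0.21 (SE 0.18, adjusted p = 0.560) and 0.0059 (SE 0.19, adjusted p = 0.990) in Ror2 P5.

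**Figure D3:**
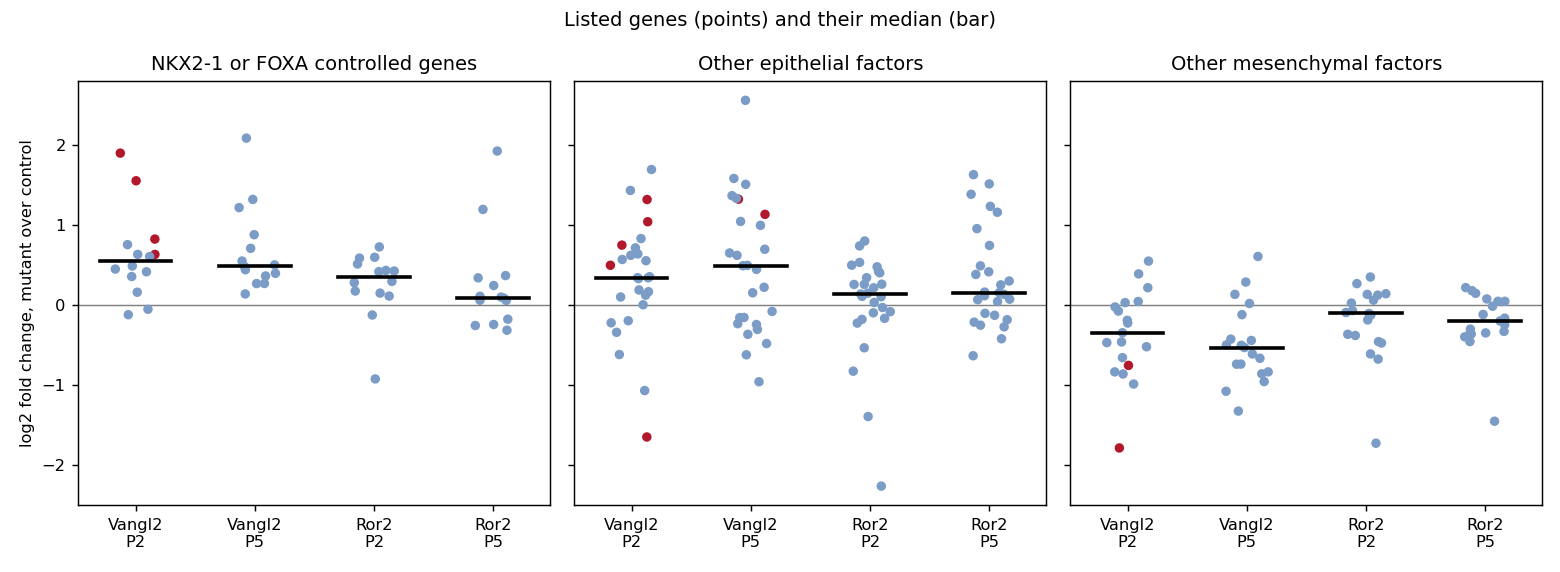
Log2 fold change, mutant over control (y axis), of the genes of 3 lists (panels) in the 4 tables (x axis); each point is a gene, the bar is the list's median, and red marks an adjusted p under 0.05. Medians of the epithelial lists lie above 0 in each table and those of the mesenchymal list below 0, and the red points lie in the Vangl2 tables.

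Whether the changes differed between the 2 mutants or the 2 days was tested as a difference of fold changes over 12 lungs, each table keeping its own controls. None of the 10 factors passed limma's test over all genes for any of the 4 differences, and hardly any gene did. The share of all genes that passed was 0% (0 of 17068) for Vangl2 P5 against P2, 0% (0 of 16990) for Ror2 P5 against P2, 0% (0 of 17137) for Ror2 against Vangl2 at P2 and 0.0118% (2 of 16887) for Ror2 against Vangl2 at P5. At an unadjusted p under 0.05 these comparisons held 1442, 1616, 788 and 798 genes. Among the factors, the Sox2 change was larger in Ror2 P5 than in Ror2 P2 by 1.82 (SE 0.46, unadjusted p = 0.00208, limma adjusted p = 0.453). Irx1 in Ror2 P5 stood against Irx1 in Vangl2 P5 at a difference of -1.13 (SE 0.30, unadjusted p = 0.00271, limma adjusted p = 0.695), and against its own P2 value at -0.84 (SE 0.34, unadjusted p = 0.0297, limma adjusted p = 0.491). For Sox2 at P2, Ror2 minus Vangl2 gave -1.09 (SE 0.41, unadjusted p = 0.0213, limma adjusted p = 0.946). For Nkx2-1 the 4 differences lay between -0.042 and 0.22, and the interval of Ror2 against Vangl2 at P5 ran from -0.55 to 0.47.

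Factors also varied together from lung to lung within groups. After each group's mean was removed from the log2 values, Irx1 and Irx2 had a Pearson's r of 0.83 over 24 lungs, Nkx2-1 and Foxa2 0.79, Tbx4 and Tbx5 0.79 (23 lungs) and Foxa1 and Foxa2 0.68. The Iroquois pair thus moved together among lungs of a group, although Irx1 and not Irx2 passed the test in Ror2 P5. Foxa1 and Sox2 had 0.57, Nkx2-1 and Sox2 0.21, and Sox2 and Tbx4 -0.49. Sox9 stood outside these pairs, with no r above 0.21. These are descriptions over lungs that share tables, size factors and the mix of cells in a lobe.

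**Figure D4:**
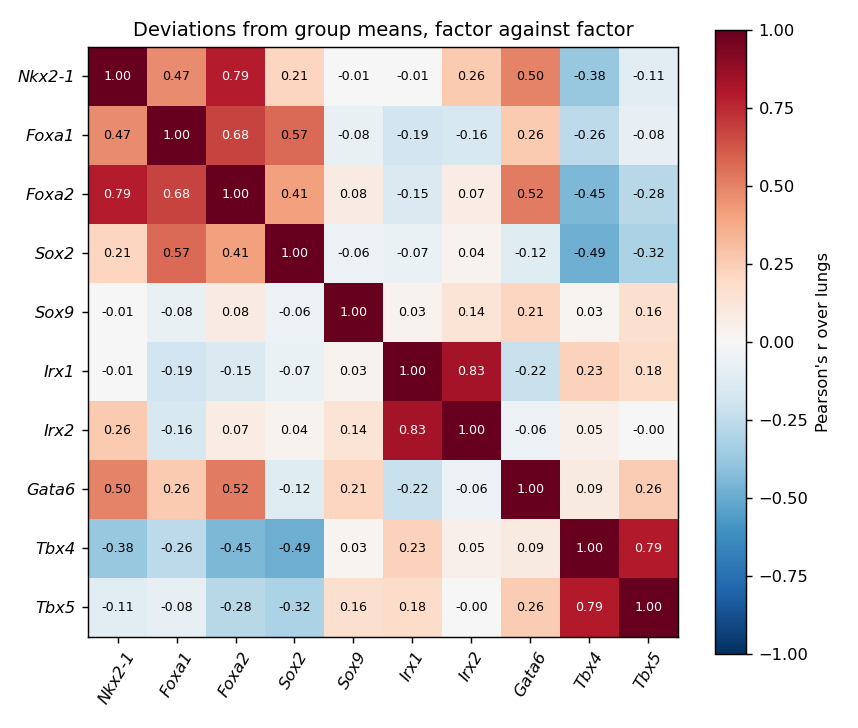
Pearson's r between the factors (rows and columns) over 23 or 24 lungs after each group's mean was removed from the log2 values; red is positive and blue negative. The deep red squares off the diagonal are Irx1 with Irx2 at 0.83, Nkx2-1 with Foxa2 and Tbx4 with Tbx5 at 0.79, and Foxa1 with Foxa2 at 0.68.

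By the same measure over 14590 genes, the 3 genes most like each factor were named. Nkx2-1 was closest to Atp8a1, a phospholipid flippase (r = 0.89), Mid1ip1 and Ccdc120. Foxa1 was closest to Hspa2, a heat shock protein (0.89), Gpt2 and Dlg3, and Foxa2 to Bicd1, a dynein adaptor (0.90), Serpinb9 and Sh2d4a. For Sox2 the list was led by 1700023L04Rik (0.86), Hspa4l and Enkur, a protein of motile cilia and sperm. Gata6 was closest to Edn3, which encodes endothelin 3 (0.82), Parp12 and Lrrc61. The Iroquois genes had other neighbours, Irx1 the nuclear receptor Nr4a3 (0.91), Slc3a2 and AA986860, and Irx2 4930523C07Rik (0.90), Calcb and Coq10b. Tbx4 was closest to Rerg (0.92), the mural and mesenchymal receptor Pdgfrb and Gpc4, and Tbx5 to Phldb1 (0.92), Plbd2 and Gucy1a3. Sox9 had the weakest likeness, to Itpkc (0.76), the stress factor Xbp1 and Scamp4.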

How the data were processed

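RNA of the left lobe was extracted with TRIzol and RNeasy columns and sequenced on Illumina HiSeq instruments, per the labels and the study's methods. The submitters' processing notes name DESeq2 and mm10, and the aligner, read counter and annotation are not given in the sources used here. The deposited tables hold, for each lung, signal values, the authors' gene read counts scaled by size factors set within the table. The tables also hold the authors' own fold changes and p-values, which were not used. Whole reads were recovered in 21 of 24 lungs (100% of values within 0.02 of a whole number), so count tests were possible in both P2 tables only.

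Since the values are scaled, limma was used in place of a count test, with a trended eBayes (limma version 3.58.1 in R version 4.3.3). It was run on log2(normalized count + 1), a scale that understates changes of low genes. Genes with at least 1 in at least 3 of 6 lungs were tested in each table, with Benjamini-Hochberg adjustment over all of them and a threshold of 0.05. Differences between fold changes were fitted over 12 lungs. In control replicate 1 of Ror2 P5, 8085 genes on chromosomes 5 to 9 and X were set to missing, where 94.6% of expressed genes were at 0 against 0.033% elsewhere, and 154 genes without a known chromosome were kept. The scripts were tested on simulated data. Alternatives were edgeR (version 4.0.16), DESeq2 (version 1.42.0), TMM rescaling, pseudocounts of 0.5 and 5, a minimum of 10, no filter, the replicate number as a block, and each lung left out. Same-numbered lungs of Vangl2 P5 correlated at 0.486, 0.471 and 0.290 in their deviations from group means, a pairing read from the data, since the labels give only the numbers.

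Gene positions come from GENCODE M21 on GRCm38, and levels per kb use the union of exons. Likeness used genes with a mean of at least 10. All 10 factors were named, and from each list the genes that passed the test or, where none did, the most abundant ones. Sftpc was also named in Vangl2 P2, where other genes of its list passed. The members and lists were chosen with earlier results of these data known. Labels do not say that lungs of a group came from different litters, so p-values measure the spread between these 3 lungs a group.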

Additional observations from a re-analysis of the deposited data

How the results depend on the processing

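With the replicate number as a block, in the paired Vangl2 P5 table, 3 of the 10 factors and 1558 of all genes passed, against 0 and 98. In no other table did every number's correlation pass 0.1. Same-numbered lungs correlated at -0.0048, 0.052 and 0.156 in Vangl2 P2 and 0.021, 0.297 and 0.181 in Ror2 P2. In Ror2 P5 the values were 0.064, -0.059 and -0.133. Of 6 lungs, 2, 5 and 1 were closest to their own number in these tables, so Ror2 P2 may be partly paired. In the same 3 tables the block gave 1 factor (Irx1) in Vangl2 P2, 1 gene and 0 factors in Ror2 P2, and 1 gene and 0 factors in Ror2 P5, and it changed no other call on a factor. DESeq2 on the recovered reads called 2001 genes and 2 factors in Vangl2 P2 and 803 genes and 2 factors in Ror2 P2. Keeping control replicate 1 of Ror2 P5 for all genes left 1 gene and 0 factors called, and turned Tbx5 to 3.63, since its value there is 0. Leaving out 1 lung at a time, genes called ranged from 1 to 2333 in Vangl2 P2, 0 to 54 in Vangl2 P5, 0 to 859 in Ror2 P2 and 0 to 830 in Ror2 P5, and factors from 0 to 1, 0 to 0, 0 to 2 and 0 to 6. The highest counts came without mutant replicate 3 (Vangl2 P2 and Ror2 P5) or mutant replicate 2 (Ror2 P2), and the 6 factors of Ror2 P5 were then Nkx2-1, Foxa1, Foxa2, Sox2, Irx1 and Gata6. Without control replicate 2 or 3 of Vangl2 P2 the count of genes was 1. The cause was not tested. Other pseudocounts, filters and TMM rescaling kept the factor calls and held all counts of genes within 1.5 times.

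Some small fold changes changed sign when 1 lung was left out, with ranges of -0.0035 to 0.27 (Gata6) and -0.11 to 0.34 (Sox9) in Vangl2 P2, -0.076 to 0.31 (Irx2) and -0.17 to 0.012 (Gata6) in Vangl2 P5, and -0.0037 to 0.19 (Foxa1), -0.55 to 0.10 (Sox2), -0.22 to 0.10 (Irx2) and -0.10 to 0.44 (Irx1) in Ror2 P2. Differences that did so were, for Vangl2 P5 against P2, those of Foxa1 (-0.30 to 0.13), Foxa2 (-0.091 to 0.20), Sox2 (-0.048 to 0.52) and Irx2 (-0.32 to 0.10), for Ror2 P5 against P2 those of Nkx2-1 (-0.17 to 0.17), Foxa2 (-0.18 to 0.077), Gata6 (-0.081 to 0.10) and Irx2 (-0.26 to 0.060), and for Ror2 P5 against Vangl2 P5 those of Nkx2-1 (-0.21 to 0.13) and Foxa1 (-0.040 to 0.23). No alternative called a factor for any difference.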

Other observations

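Cell classes next to those of the 10 factors also differed between lungs, and these values were picked after they were seen. The 4 basal cell markers, Trp63 among them, summed to 1238 in mutant replicate 3 of Vangl2 P5, against 81.7 and 113 in the other 2 mutants and 43.5 to 118 in the controls. Leukocyte markers stood at 2.37 times the controls in Vangl2 P5 without overlap and at 1.24 in Ror2 P5 with overlap, and endothelial markers at 0.655 without overlap and 0.901 with overlap.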
